A study of Mus musculus with 16 samples.

Results

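The 771 regions described here were the longest runs of H3K9me2 peaks in small intestinal crypt cells, those that joined at least 20 MACS peaks out of 47065 regions in all. They made up 1.64% of the regions but held 20860 of 179733 peaks (11.6%) and 107.9 of 772.6 Mb of covered genome (14.0%). Of the 771, 57.6% held no protein-coding gene, against 71.6% of all regions, which are shorter. A listed long gene of neurons and cell adhesion overlapped 45 of them (5.84%), and all 35 such genes overlapped an H3K9me2 region of some size. The domains' share of the reads in all H3K9me2 regions was close to that in input, sonicated chromatin without antibody. In mice with deletion of Smarcad1, no domain was called lower or higher in H3K9me2, as in nearly the whole table (0.00212% of all regions lower, 0% higher). By a normal approximation, the 95% interval of the change in reads lay within 0.5 of 0 on the log2 scale in each domain. Reads were scaled to those in all regions, so a shift common to all regions cannot be seen. Of 18767 H3K9me3 peaks lying inside the domains, 17 were called lower (0.0906%, against 2.46% of all peaks) and 35 higher (0.187%, against 0.252%) in KO. These counts fell to 0 and 0 with limma without a variance trend, where 87 lower and 16 higher were called over all 212313 peaks (5226 and 536 with the trend), and to 3 lower without WT3, where 3579 were lower over all peaks. The domains were chosen by peak number, a measured value, and since peaks were called from the pooled H3K9me2 reads of both genotypes against input, peak number, width and level over input are given as a description, with no test.

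H3K9me2, dimethylation of lysine 9 of histone H3, is placed mainly by the methyltransferases EHMT1 (GLP) and EHMT2 (G9a). It is found over silent genes and gene-poor chromatin, often in long blocks and next to the nuclear lamina, and is read by HP1 proteins. H3K9me3, the trimethylated form, marks constitutive heterochromatin and silenced repeats. SMARCAD1 is an ATP-dependent nucleosome remodeler of the SNF2 family that has been linked to the upkeep of both marks.

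Whole crypts were isolated from the small intestine of male mice of C57BL/6 background. KO mice carried floxed Smarcad1 exons from 1 targeted mouse line and the Vil-Cre transgene, in which the Villin promoter expresses Cre in the intestinal epithelium, and WT mice served as controls. Ages and the Cre and floxed-allele status of the WT mice were not given in the sources used here. Crypt isolates also hold some cells in which the Villin promoter is silent. For each antibody there were 3 ChIP libraries of either genotype plus 1 input each, which makes 16 for both marks. The labels do not say whether replicates came from separate animals, so p-values measure the spread between these libraries. The paper calls the H3K9me3 replicates biological. The 6 H3K9me2 ChIP libraries held 18986927 to 39080740 reads in regions and the inputs 11716581 (WT) and 12365259 (KO), and the median domain held between 3329 and 6818 ChIP reads per library, against 2012 and 2096 in the inputs. Differences between libraries exceeded sampling noise in every pair, with a chi-square per degree of freedom over all regions from 1.36 for WT2 and WT3 to 5.92 for WT1 and KO3.

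Short stretches of 6 domains are shown so that the base composition behind the values can be seen. They are the plus strand of GRCm38, 300 bases each, outside annotated exons and centred on the H3K9me3 peak of highest level in the domain, with CpG dinucleotides in capitals. They come from the domain with most peaks (Nxpe4, chr9:47953125-47953424), the next (Nrxn3, chr12:88950750-88951049), the domains of smallest p with lower (Krtap11-1, chr16:89612100-89612399) and higher (immunoglobulin heavy chain V segments, chr12:115540200-115540499) H3K9me2, the one of highest ChIP over input (Gm5624, chr14:44543755-44544054, moved by 2120 bases to avoid exons and so outside the H3K9me3 peak) and the one with most of its length in H3K9me3 peaks (Nlrp5, chr7:23402775-23403074).
Nxpe4 domain: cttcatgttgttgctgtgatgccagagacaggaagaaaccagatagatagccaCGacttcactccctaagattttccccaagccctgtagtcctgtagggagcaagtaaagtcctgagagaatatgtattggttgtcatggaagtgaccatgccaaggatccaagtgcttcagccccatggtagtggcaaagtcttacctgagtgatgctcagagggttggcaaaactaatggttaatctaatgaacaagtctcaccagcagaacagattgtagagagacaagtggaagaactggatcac
Nrxn3 domain: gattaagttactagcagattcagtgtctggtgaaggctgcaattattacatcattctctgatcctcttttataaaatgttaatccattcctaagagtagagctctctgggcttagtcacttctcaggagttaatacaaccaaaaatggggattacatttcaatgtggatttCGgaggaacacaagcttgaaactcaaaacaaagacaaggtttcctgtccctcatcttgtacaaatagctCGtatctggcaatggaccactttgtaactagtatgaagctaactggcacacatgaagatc
Krtap11-1 domain: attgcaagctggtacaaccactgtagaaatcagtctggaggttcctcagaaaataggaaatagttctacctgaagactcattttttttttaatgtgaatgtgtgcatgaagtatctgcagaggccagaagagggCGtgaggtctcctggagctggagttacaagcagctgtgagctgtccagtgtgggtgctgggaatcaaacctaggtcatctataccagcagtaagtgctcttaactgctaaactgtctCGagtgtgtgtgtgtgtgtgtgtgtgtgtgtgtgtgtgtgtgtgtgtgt
Ighv domain: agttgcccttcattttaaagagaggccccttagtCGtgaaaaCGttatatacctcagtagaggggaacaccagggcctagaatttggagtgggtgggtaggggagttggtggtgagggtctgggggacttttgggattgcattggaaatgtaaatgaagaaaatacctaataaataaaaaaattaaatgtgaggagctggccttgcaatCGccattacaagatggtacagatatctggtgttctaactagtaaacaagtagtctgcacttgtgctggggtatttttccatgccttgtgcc
Gm5624 domain: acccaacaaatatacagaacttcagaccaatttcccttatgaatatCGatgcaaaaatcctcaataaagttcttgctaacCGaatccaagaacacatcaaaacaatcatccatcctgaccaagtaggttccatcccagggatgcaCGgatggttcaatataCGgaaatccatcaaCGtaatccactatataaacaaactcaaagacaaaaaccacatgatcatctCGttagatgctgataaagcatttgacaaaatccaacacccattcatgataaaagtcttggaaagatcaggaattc
Nlrp5 domain: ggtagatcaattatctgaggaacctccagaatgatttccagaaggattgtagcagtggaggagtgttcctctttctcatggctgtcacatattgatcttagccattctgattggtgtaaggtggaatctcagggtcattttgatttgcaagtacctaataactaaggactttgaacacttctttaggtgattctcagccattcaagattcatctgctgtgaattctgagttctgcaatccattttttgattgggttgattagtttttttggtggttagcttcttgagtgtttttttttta
The windows held 1, 2, 2, 3, 6 and 0 CpGs in this order. The genome annotation masks 0 of the 300 bases as repeat in the Nrxn3 window and 20 in the Nxpe4 window, but 296, 278, 300 and 263 in the Krtap11-1, Ighv, Gm5624 and Nlrp5 windows.

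The domains were between 44250 and 436650 bp wide (median 128850) and joined between 20 and 79 peaks (median 24). Of these, 184 had at least 30 peaks and 21 at least 50, while 89 were at least 200 kb wide. The threshold fell within a smooth run of sizes: the 97 regions of exactly 20 peaks had a median of 98100 bp, and the 124 regions of exactly 19 peaks, just outside, were 92175 bp wide at the median. Neighbouring regions of any size lay at least 5100 bp apart, and 217 domains (28.1%) lay within 100 kb of another. In 57 cases the next region along the chromosome was a domain as well.

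**Figure D1:**
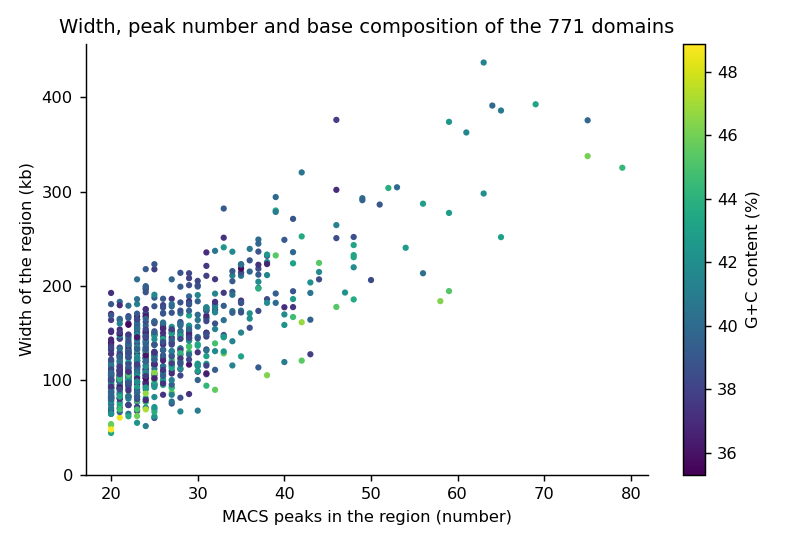
Each point is 1 of the 771 domains, with its number of MACS peaks on the horizontal axis, its width in kb on the vertical axis and its G+C content as colour. The domains span 20 to 79 peaks and up to 437 kb, and most lie near the 20-peak threshold, with a median of 24 peaks.

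Every autosome held domains and the sex chromosomes held none. Chromosome 3 had most (60), followed by chromosomes 9 (54), 15 (52) and 18 (51), and chromosomes 19 (24) and 14 (26) had fewest. As a share of chromosome length, domains covered 7.77% of chromosome 18, 6.83% of chromosome 9 and 6.53% of chromosome 15, but 2.74% of chromosome 2. The X chromosome carried 1756 H3K9me2 regions, none with more than 12 peaks or wider than 25500 bp. The base composition of the domains was A+T-rich. Their median G+C content was 39.6% (38.7% in regions of 10 to 19 peaks, 42.0% in regions of 1 peak and 41.7% in the genome), and the median ratio of observed to expected CpG was 0.139, against 0.190 in the genome. That ratio was 0.136 in regions of 10 to 19 peaks and 0.134 over all regions, so a low value was common to H3K9me2 regions. Repeats made up a median of 32.6% of a domain, 36.3% of a region of 10 to 19 peaks and 34.7% over all regions, and 36.4% of the genome.

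Most domains were poor in protein-coding genes. Of the 771, 151 (19.6%) held no annotated gene and 444 (57.6%) no protein-coding gene, whereas 265 lay over 1 protein-coding gene, 55 over 2 to 4 and 7 over 5 or more. Among all regions, which are shorter, 56.2% held no gene and 71.6% no coding gene. In 170 domains at least 95% of the length lay within 1 gene. Gene length separated the genes touched by a domain from the rest: 72 of 230 protein-coding genes of at least 500 kb overlapped a domain (31.3%), 119 of 2259 genes from 100 to under 500 kb (5.27%) and 181 of 19422 shorter genes (0.932%). A longer gene offers more room for an overlap, so these shares describe where the domains lie and not a preference.

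Of 35 listed long genes of neurons and cell adhesion, with a median length of 1140 kb, 19 overlapped a domain, in 45 of the 771 domains (5.84%). All 35 overlapped an H3K9me2 region of some size. Nrxn3, which encodes a presynaptic adhesion protein, had 768 kb in 4 domains (47.6% of the gene), and Rbfox1, a neuronal splicing regulator, had 680 kb in 6 domains (44.6%). The adjacent IgLON genes Opcml and Ntm, which encode GPI-anchored neural adhesion proteins, had 656 and 471 kb in 4 domains each (57.8 and 48.6%), and the related Lsamp had 501 kb in 3. Dlg2, a synaptic scaffold, and Cntnap2, a neurexin-related adhesion protein, had 383 and 315 kb but only 19.4 and 14.0% of their length in domains. Other genes were covered nearly end to end, and were chosen after their values were seen: Ncam1, a neural adhesion gene, had 96.7% of its 297 kb in 1 domain, Cdh2, N-cadherin, 96.6% of 220 kb, and Plxna4, a semaphorin receptor, 93.2% of 444 kb in 2.

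Clustered gene families of the senses and of immunity made up a smaller set. Olfactory receptor genes were present in 10 domains (52 of 1405 genes), vomeronasal receptor genes in 10 (26 of 563) and V segments of immunoglobulin and T cell receptors in 9 (55 of 516). Glutamate receptor genes (5 of 28), classical and type II cadherins (5 of 23) and serpins (7 of 68) had members in domains, and so did 5 of 99 potassium channel, 14 of 1186 microRNA, 3 of 379 solute carrier, 2 of 131 cytochrome P450, 1 of 82 defensin, 1 of 58 keratin-associated protein, 1 of 69 protocadherin and 1 of 416 Zfp zinc finger genes. Over all protein-coding genes the share was 372 of 21911 (1.70%). None of 26 genes of the H3K9 methylation machinery lay in a domain. The same held for 24 of 25 crypt and epithelial markers, the exception being Dclk1, a kinase used as a tuft cell marker, of whose 297 kb 47.3% lay in 1 domain. Lgr5, the marker of crypt base stem cells, overlapped no domain. Of the markers of other cell types that a crypt isolate can hold, 1 of 10 immune genes lay in a domain (Adgre1, which encodes the macrophage antigen F4/80), and none of 10 stromal, endothelial and muscle or of 10 neuron and glia genes did. The 7 domains over 5 or more coding genes, named after their values were seen, were 1 over the late cornified envelope genes Lce1 of the skin, 4 over olfactory receptor clusters, 1 over trypsin genes such as Try4 and Try5, and 1 over Trpv5 and Trpv6, which encode epithelial calcium channels.

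The domains took 14.84, 14.32 and 14.24% of region reads in WT1, WT2 and WT3 and 14.59, 14.52 and 14.09% in KO1, KO2 and KO3, against 14.26% in the WT input and 14.11% in the KO input. WT1, KO1 and KO2 were the high libraries and KO3 the lowest, so the genotypes overlapped, with means of 14.5% ± 0.326 (SD, n = 3) in WT and 14.4% ± 0.268 (SD, n = 3) in KO. The read density in the median domain was 1.33 ± 0.0260 reads per kb per 1e6 region reads in WT and 1.33 ± 0.0249 in KO (SD, n = 3 each), and 1.318 and 1.298 in the inputs. On the log2 scale, ChIP over the input of the same genotype had a median of 0.041, 0.0051 and 0.0015 in WT1 to WT3 and of 0.044, 0.042 and -0.0048 in KO1 to KO3. Since both sides are relative to all region reads, these ratios compare a domain with the average region and not with the genome outside regions. Averaged over the 6 libraries, single domains ran from -0.13 to 0.51 with a median of 0.024, and the same ratio over all regions had a median of 0.0062.

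The 3 domains of highest ChIP over input were between 51600 and 67950 bp wide. They were chr14:44506201-44574150 over Gm5624 (0.51), chr13:3027451-3082500 (0.33) and chr12:87996451-88048050 over Gm2075 (0.31), with repeats over 49.1, 48.3 and 52.0% of their length. The domain on chromosome 13 had only 0.57% of its length in a gene, Gm17177, that it touched at its edge. At the Gm5624 domain the inputs themselves differed, by -0.18 for KO over WT on the log2 scale. The lowest were chr8:99536251-99669750 within A330008L17Rik (-0.13) and a pair on chromosome 4, chr4:68133601-68254050 (-0.12) and chr4:67690651-67796850 (-0.12). In these 3, ChIP over input was below that of the average region, and their G+C content was 36.3 to 37.1%.

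Reads in the domains varied with base composition, and did so differently in each library. In the 193 domains of lowest G+C (35.3 to 38.1%), the median log2 difference of WT1 from the mean of the 6 libraries was -0.065. In the 193 of highest G+C (41.4 to 48.9%), it was 0.17. KO1 ran from 0.00026 to 0.048 and KO2 from 0.011 to 0.017 between the same quartiles. WT2 fell from 0.031 to -0.047, WT3 from 0.030 to -0.076 and KO3 from -0.0011 to -0.11. The split thus crossed the genotypes, with WT1 and KO3 at the ends. The median KO over WT change of the domains moved along with it, from 0.0057 in the lowest quartile to -0.0060, -0.014 and -0.038 in the others, and the median ChIP over input rose from -0.025 to 0.064. The part of these library differences in any change between genotypes was not tested beyond the GC-dependent offsets among the alternatives.

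**Figure D2:**
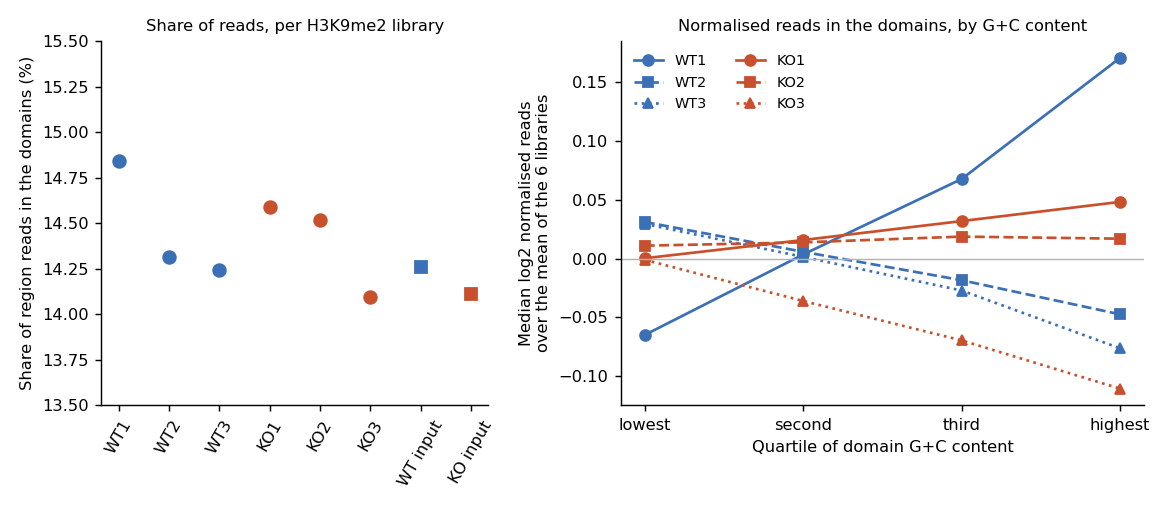
Left, percent of H3K9me2 region reads that lie in the domains, for 6 ChIP libraries (circles) and 2 inputs (squares), WT in blue and KO in red, on an axis that does not start at 0. Right, median over domains of the log2 normalised reads of each ChIP library relative to the mean of the 6, by quartile of domain G+C content. WT1 rises from -0.065 to 0.17 and KO3 falls to -0.11 in the highest quartile, so the libraries do not separate by genotype.

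Whether loss of Smarcad1 changed H3K9me2 in its largest domains was tested with edgeR's quasi-likelihood test on the reads of all 47065 regions. None of the 771 domains was called lower and none higher in KO at an adjusted p under 0.05, and DESeq2 called none either. Reads were scaled to those in all regions, so a shift of the mark common to all regions cannot be seen. By Western blot, the paper reported some drop of H3K9me2 in small intestinal crypts of KO mice. Over all regions, 1 was called lower (0.00212%) and 0 higher (0%). At an unadjusted p under 0.05 there were 10 domains, 5 lower and 5 higher (1.30%, against 3.16% of all regions). The smallest adjusted p was 0.9999 by edgeR. Log2 changes of the domains ran from -0.25 to 0.15 with a median of -0.012 (-0.0015 over all regions) and a median SE of 0.046, and 499 domains (64.7%) had a change below 0, against 50.7% of all regions. The median crossed 0 when WT1 (0.0050) or KO3 (0.011) was left out and under quantile normalization with limma (0.00087). By a normal approximation from the SE, the 95% interval of the change lay within 0.25 of 0 on the log2 scale in 740 domains (96.0%). In all 771 it lay within 0.5. Intervals matched to the test's degrees of freedom would be wider. The changes are in all reads of a domain, and the part of background in them was not tested. The KO libraries all lay below the WT libraries in 19 domains (2.46%, against 3.92% of all regions) and above them in 14 (1.82%, against 4.15%).

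**Figure D3:**
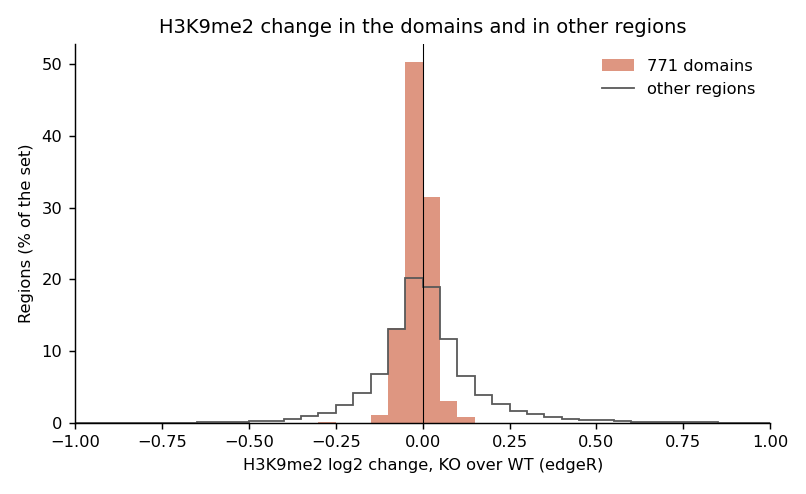
Distribution of the H3K9me2 log2 change, KO over WT, from edgeR in bins of 0.05, for the 771 domains (filled) and all other regions (line), as percent of each set. Domains hold more reads than other regions and cluster around 0, with a median of -0.012 and a range from -0.25 to 0.15, and the axis shows changes from -1 to 1.

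The 10 domains with most peaks showed the same picture. The first, with 79 peaks over 325200 bp (chr9:47922451-48247650), lay over Nxpe4 and several predicted genes and held 14385, 11497 and 11439 normalised reads in WT1 to WT3 and 12488, 12269 and 11218 in KO1 to KO3. WT1 stood apart and the groups overlapped, with a log2 change of -0.054 ± 0.092 (SE). The domain within Nrxn3 (chr12:88866751-89242200, 75 peaks, 375450 bp) was much more even, at 14399, 14018 and 13831 in WT and 14111, 14177 and 13470 in KO, for a change of -0.017 ± 0.039. The domain within Spock1, which encodes the extracellular proteoglycan testican-1 (chr13:57540001-57877500, 75 peaks), had 14482, 11221 and 10944 in WT and 12610, 12205 and 10820 in KO, a change of -0.042 ± 0.13. There WT1 exceeded every other library, and G+C content was 46.1%, the highest of the 10. The others lay at chr16:9070501-9462900 (69 peaks), within or over Bmper, a secreted regulator of BMP signalling (chr9:23292601-23678400, 65), over Myocd, a coactivator of smooth muscle genes (chr11:65200051-65451750, 65), within Opcml (chr9:28480951-28872000, 64), within Npas3, a brain transcription factor (chr12:53523601-53960250, 63 peaks and, at 436650 bp, the widest domain), at chr13:71540551-71838450 (63) and at chr9:30045301-30407850 (61). Over the 10, changes ran from -0.069 to -0.017 with the smallest unadjusted p at 0.27 (edgeR), and KO and WT libraries overlapped in each.

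The domain of smallest p lay on chromosome 16 over Krtap11-1, which encodes a hair keratin-associated protein (chr16:89561851-89628600, 25 peaks, 66750 bp). Normalised H3K9me2 reads were 2303, 1885 and 1964 in WT and 1807, 1781 and 1604 in KO, so each KO library lay below each WT library. The log2 change was -0.25 ± 0.066 with an unadjusted p of 0.0011 and an adjusted p of 0.9999 (edgeR), so it was not called. WT1 was again the highest library, and without it the change was -0.16. The inputs differed by -0.048 for KO over WT. The next domains without overlap and with lower values were chr9:85923301-86062350 (-0.093 ± 0.043), chr4:4275151-4468950 (-0.081 ± 0.040), the Cdh2 domain chr18:16588351-16801800 (-0.074 ± 0.041) and chr18:45033001-45203700 (-0.070 ± 0.042), all with an edgeR adjusted p of 0.9999.

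Of the 14 domains with higher values in every KO library, the 5 of smallest p are described here. The first, over Ighv1-63, Ighv1-64 and other heavy chain V segments (chr12:115473001-115552950, 23 peaks), had 1532, 1434 and 1501 normalised reads in WT and 1573, 1625 and 1745 in KO, a change of 0.15 ± 0.055. The domain over the vomeronasal receptor genes Vmn2r28 and Vmn1r60 (chr7:5466901-5552400) had 1850, 1998 and 1890 in WT and 2036, 2128 and 2083 in KO, a change of 0.12 ± 0.050. The others were chr6:130812901-130880400 over Gm33962 (0.11 ± 0.051), chr17:18631201-18733350 over the pseudogene Vmn2r-ps115 (0.082 ± 0.045) and chr6:130096951-130224600 over the NK cell receptor genes Klra7, Klra8 and Klra9 (0.077 ± 0.044). None of these was called, with an edgeR adjusted p of 0.9999 in each. The vomeronasal receptor, Klra and heavy chain V segment families hold closely related copies, in which reads could be placed on a related copy despite the filter on mapping quality, so their values are uncertain.

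H3K9me3 was tested with limma on the deposited log2 values of all 212313 peaks, a readout the choice of domains did not use. Inside the domains, 17 of 18767 H3K9me3 peaks (0.0906%) were called lower in KO, against 2.46% of all peaks, and 35 (0.187%) were called higher, against 0.252% of all peaks. The share called lower was also small in regions of 10 to 19 peaks (0.147%), 5 to 9 (0.246%), 2 to 4 (0.583%) and 1 peak (0.535%). It was 2.20% among peaks across the edge of a region and 6.61% among 67487 peaks outside every H3K9me2 region. At like signal the share called lower was smaller inside domains than outside regions in each of 4 ranges of mean log2 level: 0.0672% against 0.612% under 4, 0.0264% against 3.85% from 4 to 5, 0.108% against 8.97% from 5 to 6, and 0.265% against 16.2% at 6 or more. Inside other H3K9me2 regions it was 0.0551, 0.0705, 0.365 and 0.855% in this order, so under 4 it was not above that of the domains. The median log2 change was 0.060 inside domains, 0.056, 0.054 and 0.050 in regions of 10 to 19, 5 to 9 and 2 to 4 peaks, 0.028 over all peaks and -0.043 outside regions. Deposited H3K9me3 values were transformed to matching distributions, so a shift of the mark common to all peaks cannot be seen and these medians are relative to one another.

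**Figure D4:**
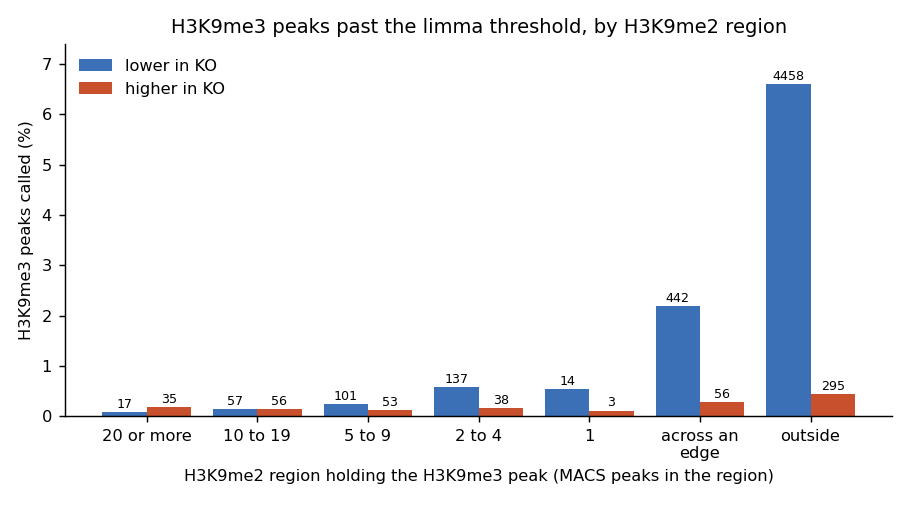
Percent of H3K9me3 peaks called lower (blue) or higher (red) in KO by limma, by the H3K9me2 region that holds them, with the number of called peaks above each bar. In domains of 20 or more peaks 17 were lower and 35 higher, and outside every region 4458 were lower.

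Nearly every domain held H3K9me3. At least 1 peak lay wholly inside 767 of the 771, with a median of 23 and up to 122 (in Opcml). H3K9me3 peaks covered 31.0% of domain length in all, 27.8% in the median domain. The highest shares were 96.3% at chr7:23359051-23435850 over Nlrp5, a maternal-effect gene of oocytes, 90.0% at chr15:87574651-87622650 within Fam19a5, 89.9% at chr16:7094551-7211550 within Rbfox1 and 89.7% at chr15:71739451-71898150 over Col22a1, a collagen gene. H3K9me2 changes in these 4 lay between -0.097 and -0.0054, none called by edgeR. Of the 4, the Fam19a5 domain had the largest SE (0.20), with 1380, 940 and 888 normalised reads in WT and 1115, 991 and 917 in KO, WT1 again being the highest.

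The called H3K9me3 peaks lay in 44 domains, 28 with higher and 16 with lower peaks. In 2 domains more than 1 peak was called higher, and in 1 more than 1 was called lower. The first of the 2 lay within Dapk1, which encodes the death-associated protein kinase (chr13:60619951-60673650, 20 peaks, 53700 bp). All 10 of its H3K9me3 peaks had values above WT and 5 were called higher. The largest peak, in an intron (chr13:60646951-60658650), had log2 levels of 7.98, 7.84 and 7.51 in WT and 8.35, 8.27 and 8.43 in KO, without overlap, a change of 0.57 ± 0.098 (limma adjusted p = 7.1e-05). The H3K9me3 inputs held 195 (WT) and 218 (KO) reads there. H3K9me2 in the same domain was 1394, 1137 and 1103 normalised reads in WT and 1238, 1219 and 1167 in KO, a change of -0.011 ± 0.071.

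The second was the Krtap11-1 domain, in which H3K9me2 had the smallest p. All 18 of its H3K9me3 peaks had values above WT, with a median change of 0.47, and 4 were called higher. The one of smallest p (chr16:89585101-89586750) had log2 levels of 4.85, 4.70 and 4.05 in WT and 5.72, 5.61 and 5.67 in KO, a change of 1.13 ± 0.22 (limma adjusted p = 0.00045), while the inputs held 49 (WT) and 33 (KO) reads. The other 14 H3K9me3 peaks did not pass the threshold, and H3K9me2 was not called.

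**Figure D5:**
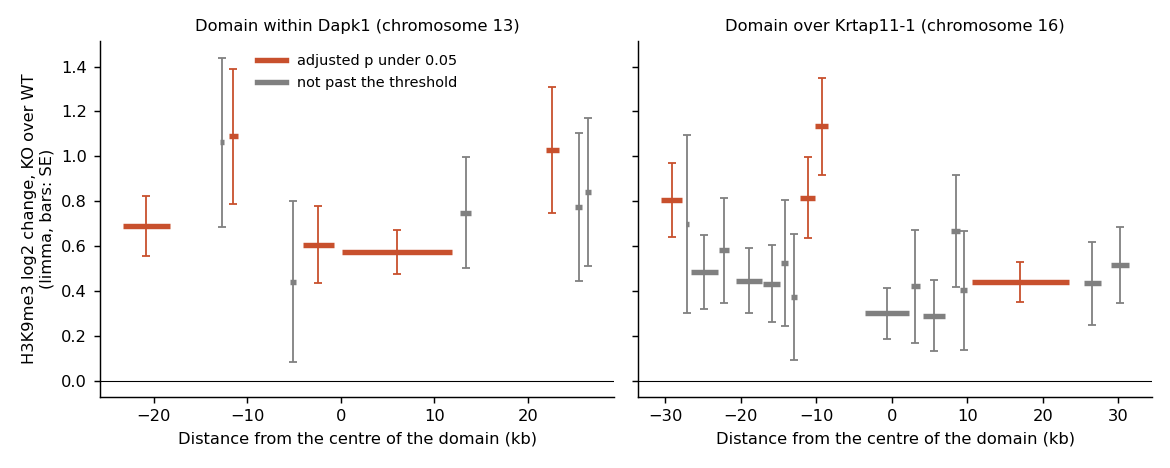
H3K9me3 log2 change, KO over WT, of each peak inside the domains at Dapk1 (10 peaks) and Krtap11-1 (18 peaks), by distance in kb from the domain's centre. Horizontal bars span the peak, vertical bars are SE from limma, and peaks past the threshold are red (5 and 4), and all 28 lie above 0.

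Another 26 domains held 1 higher peak each, and 3 of these peaks, all in introns, are described here. At Astn2, a gene of neuronal migration (chr4:66214951-66216000), levels were 3.93, 3.40 and 4.26 in WT and 4.89, 5.14 and 5.18 in KO, a change of 1.20 ± 0.27 (limma adjusted p = 0.0035). At Tenm4, a teneurin adhesion gene (chr7:96176401-96186300), they were 7.64, 7.44 and 7.59 in WT and 7.92, 8.03 and 7.91 in KO, a change of 0.40 ± 0.098 (limma adjusted p = 0.0089). At Arhgap44 (chr11:65094601-65098350), the change was 0.59 ± 0.15 (limma adjusted p = 0.013). The KO input was also higher at these 3, with 32 against 20, 216 against 166 and 100 against 55 reads, and the part of the input in these changes was not tested. With limma and 1 library left out, the Astn2 call held throughout, the Tenm4 call was lost without WT2 (adjusted p = 0.092) or KO2 (0.080), and the Arhgap44 call without WT2 (0.15), WT3 (0.057) or KO3 (0.058).

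Lower peaks were mostly alone in their domains. In the domain over Cyp2c39, a cytochrome P450 gene, the intergenic peak chr19:39489451-39490200 fell from 4.71, 4.45 and 4.76 in WT to 2.58, 3.37 and 3.87 in KO, the largest drop of the 5 lower peaks named (-1.37 ± 0.33, limma adjusted p = 0.0088). Its 8 H3K9me3 peaks all had values below WT. In the domain over Obox7, an oocyte homeobox gene, a peak in an intron of Nlrp5-ps (chr7:14591701-14592600) went from 4.55, 5.22 and 4.86 to 3.47, 3.59 and 4.05 (-1.17 ± 0.29, limma adjusted p = 0.0090). The other 3 were chr17:57642001-57644100 in the Adgre1 domain (-0.72 ± 0.17), chr18:45852151-45855900 in the domain over Kcnn2, a calcium-activated potassium channel gene (-0.61 ± 0.14), and chr7:31347001-31350450 in the domain over the secretoglobin gene Scgb2b2 (-0.61 ± 0.14). None of the 5 lower calls held with every library left out in turn. By limma, the Cyp2c39 peak lost it without WT1, WT3 or KO1 (adjusted p from 0.073 to 0.083), the Nlrp5-ps peak without WT2 (0.15) or WT3 (0.053), the Adgre1 peak without WT3 (0.12) or KO3 (0.084), the Kcnn2 peak without WT3 (0.080) or KO2 (0.091), and the Scgb2b2 peak without WT3 (0.14). The H3K9me2 changes of the 5 host domains were between -0.091 and 0.0059 and none was called.

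The counts of called H3K9me3 peaks changed with the libraries used. Lower peaks numbered 3 without WT3, 6 without WT1, 9 without KO3 and 11 without WT2, and higher peaks 17 without KO3, 20 without WT2 and 21 without WT3. Over all peaks the calls also fell, from 5226 to 3579, 3242, 4457 and 3933 lower in the same order, and from 536 to 352, 463 and 352 higher. Without a trend of variance on level, limma called 0 of either kind in the domains, and 87 lower and 16 higher over all peaks.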

How the data were processed

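H3K9me2 and H3K9me3 ChIP-seq of small intestinal crypts was analysed from tables. According to the methods of the study, reads were trimmed (Trim Galore 0.4.4), mapped to GRCm38 (Bowtie2 2.3.2), and reduced to unique pairs of high mapping quality. MACS peaks were called once per mark on all ChIP libraries against both inputs. The deposited H3K9me2 signal was the authors' mean read count per peak in a region; how peaks were joined into regions was not given in the sources used here. The product of mean and peak number was whole to within 0.00114, and these rounded sums were tested, which differs from the study's test of single peaks. The deposited H3K9me3 values were log2 reads per peak that the authors had matched in distribution between ChIP libraries, not inputs. A deposited table of read counts for 3 H3K9me2 peaks past the authors' test placed 0 of them in the domains, and their test values were not used; a like table for H3K9me3 and the 8 standard deviation columns were left out.

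H3K9me2 was tested with edgeR 4.0.16 (TMM, filterByExpr, quasi-likelihood F test) over 47065 regions and H3K9me3 with limma 3.58.1 (eBayes with trend) over 212313 peaks, both two-sided with genotype as the single term and a Benjamini-Hochberg adjusted p under 0.05. Functions were tested on simulated data. Normalised reads are TMM-scaled to the average library. ChIP over input used reads divided by all region reads, with 1 read added. Genes came from GENCODE M21 and base composition from GRCm38. The members and lists were chosen with earlier results of these data known.

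Named domains were the 10 with most peaks, the 5 lower and 5 higher of smallest p without overlap between groups, the 3 highest and 3 lowest in ChIP over input and the 5 with most length in H3K9me3 peaks, 1 of which is not reported here. Named H3K9me3 peaks were the 5 lower and 5 higher of smallest p, 1 per domain. Alternatives were other normalizations, DESeq2 1.42.0, filters, thresholds, definitions of a domain, a block on replicate number and omission of single libraries. R 4.3.3 and Python 3.11.15 were used.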

Additional observations from a re-analysis of the deposited data

How the results depend on the processing

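No H3K9me2 domain was called under other normalizations (DESeq2 size factors, library totals, quantile normalization with limma, GC-dependent offsets), DESeq2, no filter on low counts, other definitions of a domain or any library left out (0 to 0 called lower and 0 to 0 higher). With a replicate block 1 was called lower, the Krtap11-1 domain (edgeR adjusted p = 0.0040), and over all regions 13 lower and 1 higher. Its adjusted p ranged from 0.10 with GC-dependent offsets upward in the other alternatives. No label pairs libraries of the same number. For H3K9me2 the correlation of their deviations was 0.18 for number 1, but 0.017 and 0.076 for numbers 2 and 3. For H3K9me3 it was -0.015, 0.0090 and -0.014. The block result thus rests on a shared number with at most a weak likeness, and whether a block is warranted was not tested. The block called 18 lower and 34 higher H3K9me3 peaks in the domains (5218 and 534 over all peaks) and changed no other call of a named domain or peak. The median H3K9me2 change ran from -0.026 to 0.011 with 1 library left out (0.00087 under quantile normalization with limma) and the median H3K9me3 change from 0.047 to 0.074. The share of reads depends on the definition: 24.3% in WT and 24.3% in KO with at least 15 peaks (1682 regions), 5.00 and 4.95% with at least 30, and 15.9 and 15.9% in the same number of widest regions, 570 of which were domains. H3K9me3 peaks called lower and higher numbered 0 and 0 with limma without trend, 5 and 8 at the stricter threshold of 0.01, 27 and 54 for domains of at least 15 peaks and 4 and 8 with at least 30. With 1 library left out they ran from 3 to 18 and from 17 to 47 (3242 to 4863 and 352 to 535 over all peaks). Over the 10 named H3K9me3 peaks no direction was reversed and 64 of 89 alternatives kept the call. The call was lost in 25, in all 10 peaks without trend and in 7 peaks with at least 1 library left out.

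The median SE of the H3K9me2 log2 change was 0.046 in the domains and 0.11 over all regions; the part of depth in this was not tested. With 1 input per genotype, differences between the inputs have no replicate. Values over repeats and near-identical genes are uncertain.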
